A study of Epimedium pubescens with 12 samples.

Results

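The 4 genes described here carry SPX names in the authors' annotation of the Epimedium pubescens genome, and they were taken by their identifiers from the 53813 genes of the deposited tables. They are 1 of 4 genes annotated SPX1 (Ebr05G012830), 2 of 3 annotated SPXM3 (Ebr02G027230 and Ebr04G018640) and 1 of 2 annotated SPXS3 (Ebr06G000490). The names SPX1 and SPXS3 without an identifier mean these genes below. E. pubescens is a medicinal herb of the barberry family. RNA was sequenced from fresh leaves of year-old seedlings, brought from cultivation bases and grown in river sand and perlite in a controlled chamber. The seedlings were watered with a nutrient solution holding 0 mmol/L (-P) or 1 mmol/L (+P) inorganic phosphate (Pi). Leaves were taken after 30 d, which gave the groups 30d -P and 30d +P, or after 90 d, which gave 90d -P and 90d +P, with 3 biological replicates lettered A to C in every group. The study raised 12 seedlings per replication, and whether a library pools leaves of several seedlings is not stated. Its recipes for -P and +P also differ in their nitrate, sulfate, potassium and sodium salts, so the absence of Pi and these salts cannot be told apart. The +P plants sampled at the same time are the controls of the -P plants.

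The SPX domain is a short stretch at the front of many eukaryotic proteins that binds inositol pyrophosphates, small signalling molecules whose level in the cell follows its phosphate supply. In Arabidopsis and rice, proteins made of little more than this domain hold back PHR transcription factors while phosphate is plentiful. When phosphate runs short, PHR is released and switches on the genes of the starvation response, SPX1 among them. Other SPX proteins join the domain to a transporter: PHO1 proteins carry a so-called EXS domain and export phosphate, and in Arabidopsis proteins that join SPX to a major facilitator superfamily domain move phosphate into the vacuole.

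The annotation sorts the 4 genes into 3 kinds. SPX1 lies on chromosome 5 from 84434853 to 84438382 on the plus strand, is named after Arabidopsis SPX1, and lists the SPX domain and no other. SPXM3 Ebr02G027230 lies on chromosome 2 from 237439801 to 237490457 on the plus strand, and SPXM3 Ebr04G018640 on chromosome 4 from 135545656 to 135700044 on the minus strand. Both are named after the Arabidopsis membrane protein At4g22990 and list an SPX and a major facilitator superfamily domain, the build of the vacuolar transporters. SPXS3 lies on chromosome 6 from 6847478 to 6955193 on the minus strand and is named after a protein of the slime mould Dictyostelium discoideum. The annotation gives it an EXS domain and no SPX domain, so the description as an SPX domain gene holds by name only for this gene, and a role in phosphate sensing was not tested for any of the 4. No other listed gene overlaps the span of any of them. The coordinates are those of the deposited tables, on the genome assembly the authors aligned to.

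In all, 32 genes of the tables list the SPX domain. Of these, 12 have no other domain, 17 also have the EXS domain, and 3 also have the major facilitator domain. Another SPXM3 gene, Ebr05G051560, and another SPXS3 gene, Ebr03G067310, are close relatives of the 4 by annotation and are set beside them below. All 4 genes passed the filter on low counts, which kept 24307 genes.

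Total counts lay between 14756971 and 18153463 per library. As a check of the tissue, 60 of 63 genes annotated as chlorophyll a-b binding proteins or RuBisCO small subunits had counts. Together they made up 57700 to 94600 CPM, the counts divided by the scaled library size, at 30 d and 27600 to 59800 CPM at 90 d. Of 3 genes annotated as Casparian strip membrane proteins, which mark root endodermis, 1 had counts, at no more than 0.128 CPM in any library. Across the genes that passed this filter, the mean Spearman correlation of a library with the others of its group lay between 0.882 and 0.944. It was lowest in 90d +P replicate B. For SPX1 and several other genes named below, 90d -P replicate B or 90d +P replicate B stood apart from the rest of its group. These genes were not all of the phosphate response. Some phosphate genes, such as PHO1 homolog 3 Ebr03G045300 and PHL3, showed no such gap. Both libraries were singled out after the values were seen, and fits and correlations that moved without them are given both ways below.

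SPX1 was the most strongly expressed of the 4 genes and the most variable between replicates. In 30d -P its level was 12.2 (A), 53.5 (B) and 119 CPM (C). In 30d +P it was 64.3 (A), 22.3 (B) and 17.7 CPM (C). These 2 groups overlapped, because 30d -P replicate A was the lowest and 30d +P replicate A the second highest of the 6 libraries.

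At 90 d, SPX1 stood at 33.4 (A), 259 (B) and 52.9 CPM (C) in 90d -P and at 42.0 (A), 9.29 (B) and 23.6 CPM (C) in 90d +P. The groups overlapped by 1 library only, 90d +P replicate A, which lay above 90d -P replicate A. The extremes of the whole experiment both stood here. 90d -P replicate B was 27.8 times as high as 90d +P replicate B and 2.17 times as high as the next library, 30d -P replicate C. These gaps are far wider than counting error, since the 4249 reads of 90d -P replicate B have an exact 95% Poisson interval of 4120 to 4380 and the 173 reads of 90d +P replicate B one of 148 to 201. Such intervals cover counting error only.

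**Figure D1:**
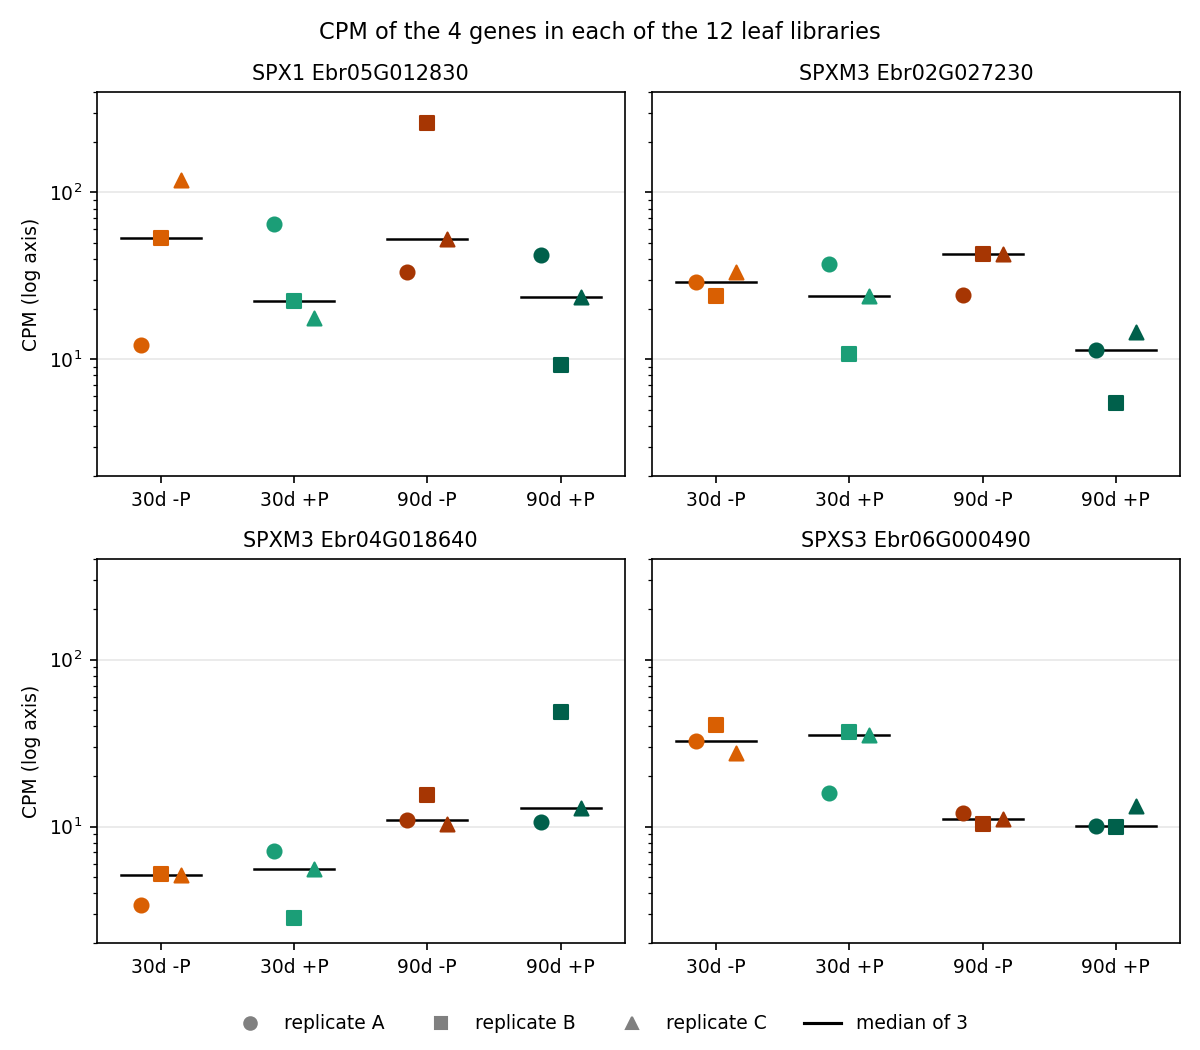
CPM of SPX1, SPXM3 Ebr02G027230, SPXM3 Ebr04G018640 and SPXS3 (log axis) in each of the 12 leaf libraries by group. The symbol shape gives the replicate and a line marks the group median. SPX1 runs from 9.29 to 259 CPM with wide spread inside each group, whereas all 90d libraries of SPXS3 lie between 9.99 and 13.3 CPM.

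By group means, SPX1 was highest in 90d -P (115 ± 125 CPM, SD, n = 3), followed by 30d -P (61.6 ± 53.9, SD, n = 3), 30d +P (34.8 ± 25.7, SD, n = 3) and 90d +P (24.9 ± 16.4, SD, n = 3). No pair of neighbours in this order differed beyond its spread. The log2 fold change of 90d -P over 90d +P was 2.20 (SE 0.99), a 4.61-fold difference, with an unadjusted p of 0.0496 and an adjusted p of 0.842 by edgeR's quasi-likelihood test. It fell to 0.79 when 90d -P replicate B was left out and to 0.39 without both of the 90 d replicate B libraries. The difference of 30d -P from 30d +P was 0.82 (SE 0.96, adjusted p = 0.920 by edgeR). Over both times, SPX1 was 1.21 log2 units higher in -P in an exact two-sided permutation test that shuffled labels within each time (p = 0.155, 400 labellings, smallest possible p 0.005). In leaf tissue a higher share of the cells that express a gene and more RNA per cell cannot be told apart.

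SPXM3 Ebr02G027230 was the one gene of the 4 whose -P and +P groups did not overlap, and this was at 90 d. It stood at 24.3 (A), 42.7 (B) and 43.0 CPM (C) in 90d -P. In 90d +P it stood at 11.4 (A), 5.48 (B) and 14.5 CPM (C). The groups did not overlap, as the lowest -P library stood above the highest +P library. Among all genes tested, 8.92% had no overlap in this comparison, 4.43% with -P higher, and 1 of the 4 genes belonged to these. At 30 d its level was 29.1 (A), 23.9 (B) and 33.5 CPM (C) without Pi and 37.4 (A), 10.7 (B) and 24.0 CPM (C) with it. The -P range lay inside the +P range, and all 4 genes overlapped at this time, where 15.2% of all genes tested did not.

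The 90 d difference of Ebr02G027230 came to a log2 fold change of 1.81 (SE 0.47), or 3.51-fold, with an unadjusted p of 0.00302 and an adjusted p of 0.726 by edgeR. It was therefore not called, and edgeR called 0 of all 24307 genes (0.0%) in this comparison, while 1065 (4.38%) had an unadjusted p of at most 0.05 with at least a doubling or halving. DESeq2 called 184 genes (0.524%) on the 6 libraries compared and 248 (0.657%) on all 12, and Ebr02G027230 was the single one of the 4 genes among them (adjusted p = 0.0194 and 0.0278 by DESeq2). Over its 10 alternatives the adjusted p ran from 0.0194 to 1.00. The log2 fold change was 1.69 without 90d -P replicate B, 1.5 without 90d +P replicate B and 1.37 without both, so the direction did not rest on the libraries that stood apart.

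Across both times, Ebr02G027230 was 1.15 log2 units higher in -P, with a permutation p of 0.035 in the exact stratified test. This p was at most 0.05 for 10.5% of all genes, 4.53% of them with -P higher. Leaving out 1 library at a time gave p between 0.01 and 0.08. In 6 of these 12 runs it rose above 0.05. They were those without 30d -P replicate A or C, 30d +P replicate B, 90d -P replicate B or C, or 90d +P replicate B. The phosphorus by time interaction, the excess of the 90 d difference over the 30 d difference, was 1.55 log2 units (SE 0.65, unadjusted p = 0.0371, adjusted p = 1.00 by edgeR), so a larger response at 90 d was not established across the table. By group means it was highest in 90d -P (36.7 ± 10.7 CPM), then 30d -P (28.8 ± 4.84), 30d +P (24.1 ± 13.4) and 90d +P (10.5 ± 4.57, SD, n = 3 each). Of the neighbours, 90d -P and 30d -P overlapped, as did both 30 d groups, and 30d +P and 90d +P overlapped by 1 library (log2 fold change -1.2, SE 0.46, adjusted p = 0.160 by edgeR).

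SPXM3 Ebr04G018640 had another pattern, being higher at 90 d than at 30 d under both phosphate supplies. At 30 d its level was 3.37 (A), 5.23 (B) and 5.10 CPM (C) in -P and 7.18 (A), 2.85 (B) and 5.54 CPM (C) in +P. At 90 d it was 10.9 (A), 15.5 (B) and 10.4 CPM (C) in -P and 10.7 (A), 48.9 (B) and 13.0 CPM (C) in +P. All 6 of the 90 d libraries lay above all 6 of the 30 d libraries, which held for 4.42% of all genes tested. Taking each supply alone, 2 of the 4 genes (this one and SPXS3) did not overlap between the times, against 33.3% of all genes in -P and 26.0% in +P. 90d +P replicate B was 3.16 times as high as the next library.

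The exact permutation test shuffling time within each phosphate supply gave a difference of 1.69 log2 units, or 3.23-fold, with p = 0.005, the smallest p that 400 labellings can give. A p of at most 0.05 was common for time, at 35.6% of all genes, 16.3% with 90 d higher. Leaving out any 1 library kept this p at 0.005 to 0.01, and the difference was 1.35 without 90d +P replicate B. By edgeR neither difference was called. The log2 fold change of 90d +P over 30d +P was 2.22 (SE 0.58, adjusted p = 0.0610), falling to 1.2 without 90d +P replicate B, and that of 90d -P over 30d -P was 1.42 (SE 0.57, adjusted p = 0.149). DESeq2 on the libraries compared gave adjusted p of 0.0181 and 0.00112 for these differences, where it called 6.13% and 9.28% of the genes it tested, and across the 10 alternatives it ran from 0.00285 to 0.169 in +P and from 0.00112 to 0.197 in -P. On all 12 libraries DESeq2 called the gene in +P, where it called 6.29% of genes, and not in -P, where it called 8.56%. Without 90d +P replicate B, edgeR called the -P difference (adjusted p = 0.0459).

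Phosphate supply gave Ebr04G018640 no separation at either time. The means were 24.2 ± 21.4 CPM in 90d +P, 12.3 ± 2.77 in 90d -P, 5.19 ± 2.19 in 30d +P and 4.57 ± 1.04 in 30d -P (SD, n = 3 each). In this order the only neighbours without overlap were 90d -P and 30d +P. The log2 fold change of 90d -P over 90d +P was -0.98 (SE 0.55, adjusted p = 0.900 by edgeR), and it became 0.04 without 90d +P replicate B.

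**Figure D2:**
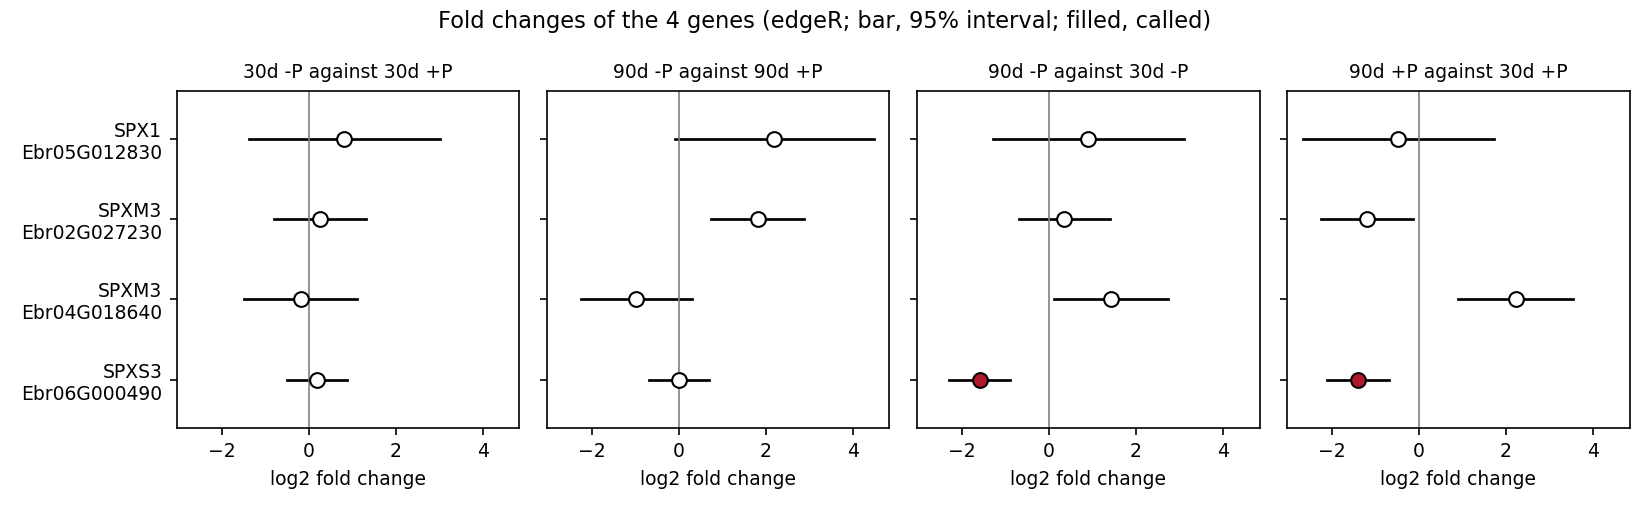
Log2 fold changes of the 4 genes in the 4 comparisons of groups (horizontal axis), with 95% intervals from the edgeR standard error and 8 degrees of freedom as bars and called genes filled. SPXS3 is the one gene called, lower at 90 d in -P (-1.59) and in +P (-1.40). Without a call, the interval of SPXM3 Ebr02G027230 lies above 0 for -P against +P at 90 d and below 0 with time in +P. That of SPXM3 Ebr04G018640 lies above 0 with time under both supplies, also without a call.

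SPXS3 was lower at 90 d than at 30 d under both supplies and was the only one of the 4 genes that edgeR called. At 30 d it stood at 32.6 (A), 40.7 (B) and 27.7 CPM (C) in -P and at 15.8 (A), 37.1 (B) and 35.4 CPM (C) in +P. At 90 d it stood at 12 (A), 10.4 (B) and 11.1 CPM (C) in -P and at 10.1 (A), 9.99 (B) and 13.3 CPM (C) in +P. Every 90 d library lay below every 30 d library, as for 6.92% of all genes tested. The 90 d libraries were also the most alike, with a highest over lowest value of 1.15 in 90d -P and 1.33 in 90d +P.

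In -P, SPXS3 fell from 33.7 ± 6.59 to 11.2 ± 0.784 CPM (SD, n = 3), which is -1.59 on the log2 scale (SE 0.31, adjusted p = 0.0236 by edgeR), with 1 of the 4 genes called against 5.58% of all genes, 3.95% of them lower at 90 d. In +P it fell from 29.4 ± 11.8 to 11.1 ± 1.88 CPM (SD, n = 3), which is -1.40 on the log2 scale (SE 0.30, adjusted p = 0.0380 by edgeR), with 1 of 4 called against 3.02% of all genes, 2.18% lower. The exact permutation test of time gave -1.45 log2 units at the smallest possible p of 0.005, and 19.2% of all genes were lower at 90 d with p of at most 0.05.

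The size of the SPXS3 change was steady, between -1.71 and -1.45 in -P and between -1.71 and -1.19 in +P with each library left out, but the calls were near the threshold. The call in -P was lost without 30d -P replicate A or B or 90d -P replicate B or C (adjusted p from 0.0697 to 0.0959). That in +P was lost without 30d +P replicate B or C, 30d -P replicate B, 90d -P replicate B or C, or any 1 of the 90d +P libraries (adjusted p from 0.0509 to 0.163). Phosphate supply made no detectable difference, with log2 fold changes of 0.19 (95% interval -0.49 to 0.88) at 30 d and 0.01 (-0.69 to 0.70) at 90 d. Its means fell in the order of the groups as first named, and of the neighbours only 30d +P and 90d -P did not overlap. The leaf markers were also lower at 90 d in +P, at 27600 to 54900 CPM against 62100 to 94600 at 30 d. In -P their ranges overlapped, at 32400 to 59800 CPM at 90 d and 57700 to 69900 at 30 d. The part of these markers in the time differences of SPXS3 and Ebr04G018640 was not tested.

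At an unadjusted p of at most 0.05 with at least a doubling or halving, the comparisons by edgeR's test counted 0 of the 4 genes at 30 d (4.85% of all genes), 2 at 90 d (4.38%), 2 with time in -P (16.5%) and 3 with time in +P (13.2%). For the phosphate effect averaged over both times 1 gene counted, Ebr02G027230, against 6.5% of all genes, and for the interaction again 1, the same gene, against 2.52%. After adjustment 0 of the 4 were called for either, where edgeR called 0.00411% and 0.0% of all genes.

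Only lengths allow the genes to be compared with each other, and for this the authors' FPKM, which divide the counts by gene length as well as by library size, were used. Averaged over 12 libraries, SPX1 reached 57.6 FPKM, SPXS3 10.1, SPXM3 Ebr02G027230 9.47 and SPXM3 Ebr04G018640 5.37. SPX1 was above Ebr02G027230 in 12 of 12 libraries and above each of the others in 11. It was below SPXS3 in 30d -P replicate A, with 12.3 against 15.9 FPKM, and below Ebr04G018640 in 90d +P replicate B, with 9.30 against 23.0 FPKM. The order of SPXS3 and Ebr02G027230 changed between groups, as Ebr02G027230 had the higher FPKM in all 3 libraries of 90d -P and in only 1 of the other 9.

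The balance between the SPXM3 genes, a comparison chosen after their values were seen and given without a test, shifted from one gene to the other. The FPKM ratio of Ebr02G027230 to Ebr04G018640 was 7.09 (A), 3.75 (B) and 5.41 (C) in 30d -P and 4.28 (A), 3.09 (B) and 3.57 (C) in 30d +P. It was 1.83 (A), 2.27 (B) and 3.39 (C) in 90d -P and 0.873 (A), 0.0922 (B) and 0.918 (C) in 90d +P. Thus Ebr02G027230 was the more abundant in all 9 libraries outside 90d +P, and Ebr04G018640 in all 3 libraries of 90d +P. The 90d +P ratios did not overlap with those of any other group. The remaining SPXM3 gene, Ebr05G051560, averaged 3.52 FPKM and varied from 0.740 CPM in 90d -P replicate C to 21.2 CPM in 90d +P replicate A. It had overlapping groups in all comparisons.

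**Figure D3:**
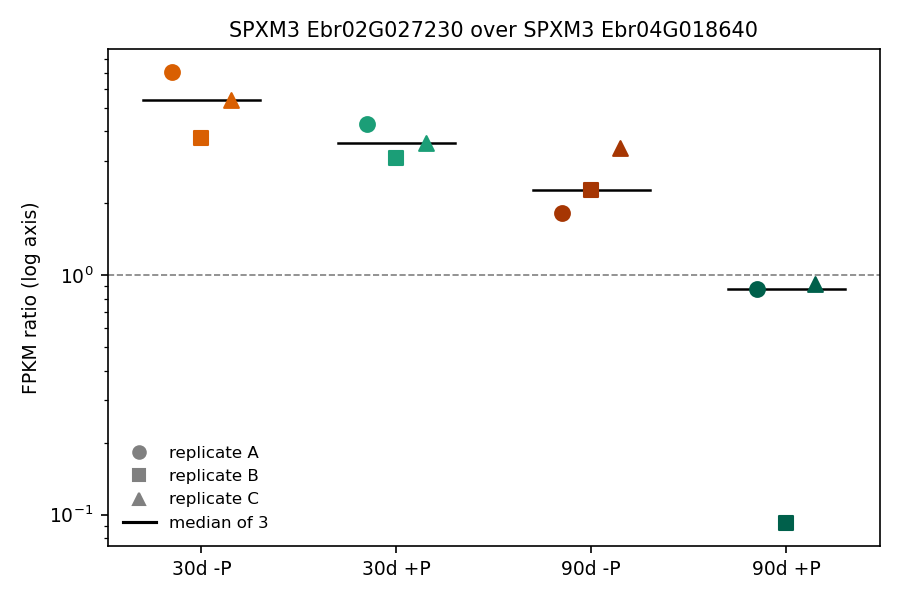
FPKM of SPXM3 Ebr02G027230 divided by FPKM of SPXM3 Ebr04G018640 (log axis) in each library by group, with the group median as a line and equal levels dashed. The ratio is at least 1.83 in every library of the other 3 groups and below 1 in all 90d +P libraries, with 90d +P replicate B at 0.0922.

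The other SPXS3 gene, Ebr03G067310, which also lists the EXS domain alone, averaged 5.37 FPKM. It had 11.8 ± 4.85 CPM in 30d -P and 10.7 ± 0.344 in 30d +P, against 7.19 ± 0.0842 in 90d -P and 5.32 ± 1.34 in 90d +P (SD, n = 3 each). Like Ebr06G000490 it was lower at 90 d without overlap under both supplies, but it was not called (log2 fold change -0.71 in -P, adjusted p = 0.181, and -1.01 in +P, adjusted p = 0.0909 by edgeR). Unlike in Ebr06G000490, its -P and +P groups also did not overlap at 90 d, as for 8.92% of all genes. That difference was not called (log2 fold change 0.44, adjusted p = 0.973 by edgeR).

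Which genes followed each of the 4 most closely over the 12 libraries was ranked by Pearson's r of log2 CPM. These r describe 12 points that share their scaling and the same 4 groups. They carry no p. The genes closest to SPX1 were GDPD1 (Ebr03G070120, r = 0.945), whose product is a chloroplast phosphodiesterase that in Arabidopsis releases glycerol phosphate from deacylated membrane lipids, and both of the adjacent purple acid phosphatase 3 genes Ebr01G031330 (r = 0.934) and Ebr01G031340 (r = 0.932), which encode enzymes that split phosphate from organic compounds. Without both of the 90 d replicate B libraries, which leaves 10 points, r was 0.866, 0.895 and 0.870. Reads shared by such neighbouring copies may have been counted to either.

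GDPD1 ran from 3.12 CPM in 90d +P replicate B to 857 CPM in 90d -P replicate B. Between these lay 199 CPM in 30d -P replicate C and 71.2 CPM in 30d +P replicate A, which were also the libraries of highest SPX1 after 90d -P replicate B. PAP3 Ebr01G031330 had its lowest value, 0.752 CPM, and its highest, 638 CPM, in the same libraries as SPX1 did. GDPD1 was not called at 90 d (log2 fold change 4.50, SE 1.64, adjusted p = 0.842 by edgeR), and its 90d -P replicates A and C had 14.6 and 37.8 CPM and 90d +P replicate A had 28.6 CPM. Its difference was 0.98 without 90d -P replicate B and 0.49 without both replicate B libraries. Among the other SPX domain genes, SPX2 Ebr06G027380 had r = 0.917 with SPX1 and SPX2 Ebr02G060760 had r = 0.812, or 0.816 and 0.669 without both replicate B libraries. The first stood at 244 CPM in 90d -P replicate B and between 35.2 and 95.9 CPM in the remaining libraries.

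The closest genes to SPXM3 Ebr04G018640 were annotated for work in the nucleus and not for phosphate. They were the bromodomain factor GTE8 (Ebr03G066040, r = 0.988), the Mediator subunit 15a (MD15A, Ebr01G039270, r = 0.967), a part of the complex that links transcription factors to RNA polymerase II, and SUVH6 (Ebr04G010210, r = 0.964), a histone methyltransferase of silent chromatin. All 3 peaked in 90d +P replicate B, as Ebr04G018640 did, with 61.7 CPM for GTE8, 184 CPM for MD15A and 124 CPM for SUVH6, though over a far narrower range than Ebr04G018640. Without that library their r were 0.979, 0.931 and 0.930 over 11 points.

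For SPXS3 the closest were NADH-cytochrome b5 reductase 1 (NB5R1, Ebr01G035680, r = 0.991), an electron carrier enzyme, a gene named after the yeast vacuolar membrane protein YML018C (Ebr02G033240, r = 0.987), and acid phosphatase 1 (PPA1, Ebr01G075080, r = 0.985). NB5R1 stood between 94.1 and 247 CPM at 30 d and between 57.1 and 86.4 CPM at 90 d. PPA1 had between 0.132 and 3.52 CPM at 30 d and no count in any of the 6 libraries at 90 d. SPXM3 Ebr02G027230 was most like Ebr01G010680 (r = 0.940), which has no annotated product. Next came a gene that the authors assembled themselves (r = 0.914) and UGPA3 (Ebr01G068990, r = 0.907). The assembled gene is named after a pentatricopeptide repeat protein, but the domains listed for it are of other families. In 90d +P it had 3 (A), 0 (B) and 5 (C) reads, and Ebr01G010680 had 1, 0 and 4. Ebr01G010680 reached at most 0.987 CPM in any library, so the r of both genes rest partly on very low counts. UGPA3 is a chloroplast enzyme that makes UDP-glucose for sulfolipid synthesis. It ranged from 56.7 CPM in 90d +P replicate B to 133 CPM in 90d -P replicate B, the same direction as Ebr02G027230 but a narrower range. Without both of these libraries the r of the 3 genes were 0.883, 0.838 and 0.831.

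Among the 4 genes themselves, SPX1 and SPXM3 Ebr02G027230 had r = 0.654, and SPXM3 Ebr04G018640 and SPXS3 had r = -0.826. The remaining pairs lay between -0.382 and 0.120. Without both replicate B libraries the first of these r was 0.388 and the second -0.887, and that of the SPXM3 genes with each other went from -0.382 to 0.031.

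**Figure D4:**
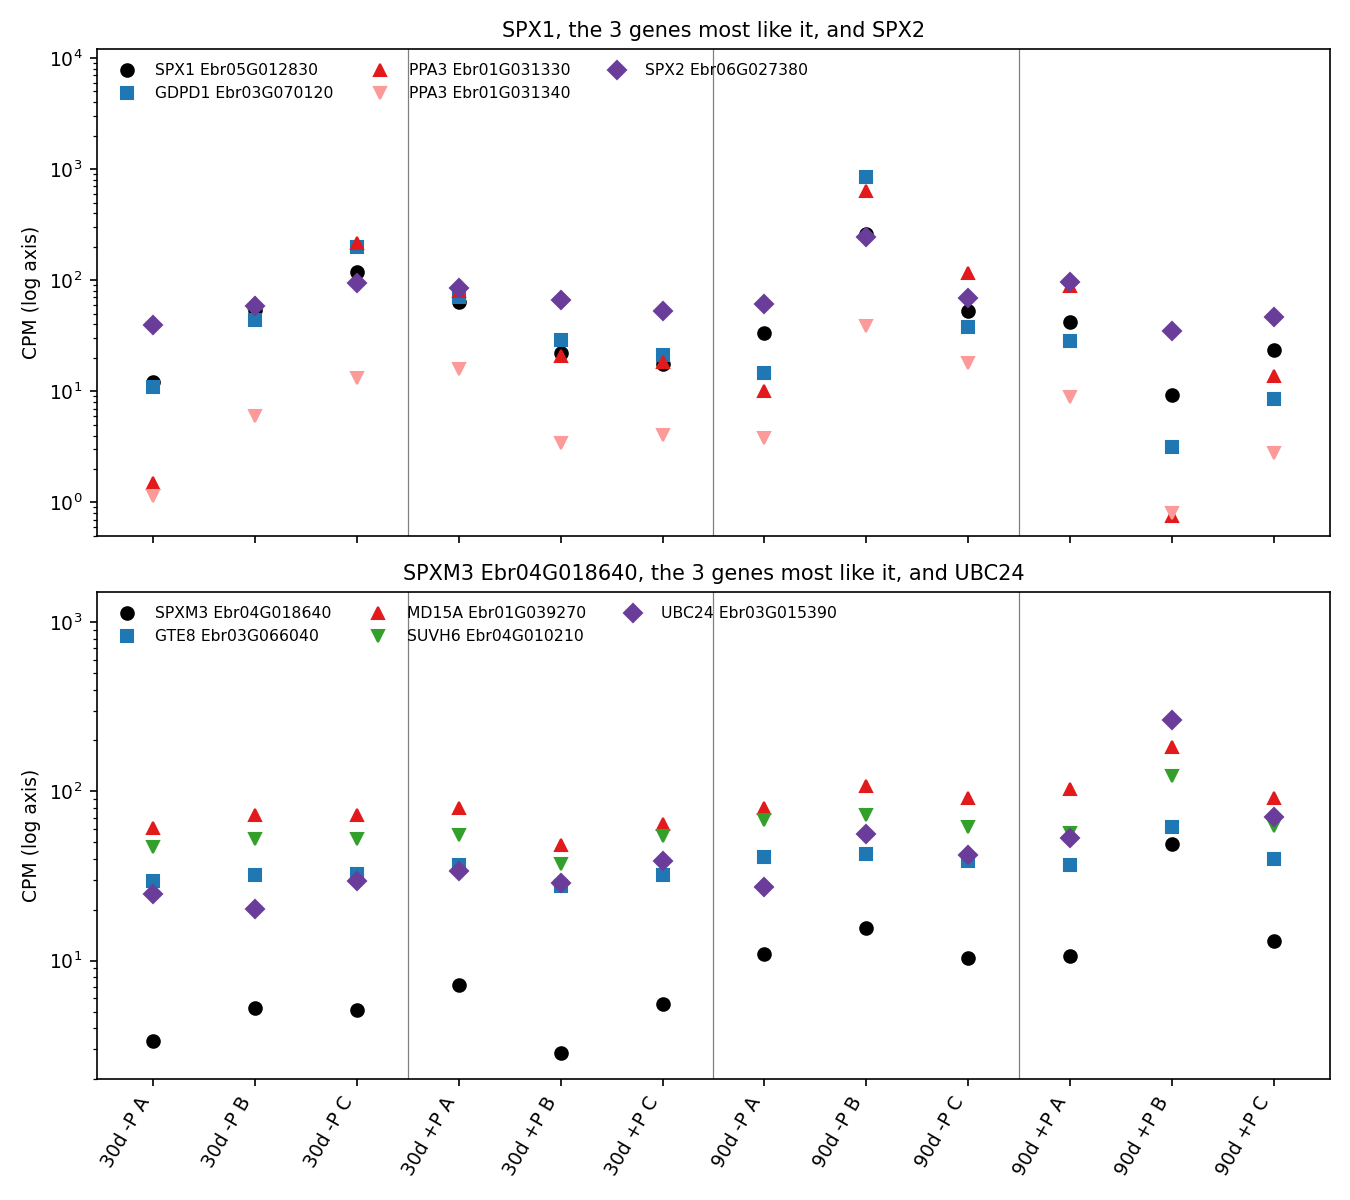
CPM (log axis) in each library of SPX1 with GDPD1, both PAP3 genes (PPA3) and SPX2 (top), and of SPXM3 Ebr04G018640 with GTE8, MD15A, SUVH6 and UBC24 (bottom). The top genes all peak in 90d -P replicate B, with SPX1 at 259 and GDPD1 at 857 CPM, and the bottom genes in 90d +P replicate B, with UBC24 at 264 CPM.

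The wider SPX family was compared by its FPKM over the 22 genes tested that carry an SPX or EXS domain. By the mean over all 12 libraries, SPX1 ranked 3, after PHO1 homolog 3 Ebr03G045300 (65.8 FPKM) and SPX2 Ebr06G027380 (58.9 FPKM), while SPXS3 ranked 7, Ebr02G027230 ranked 9 and Ebr04G018640 ranked 12. The ranks of mean FPKM within a group moved around these. SPX1 ranked 2 in 30d -P, 3 in 30d +P, 1 in 90d -P and 3 in 90d +P. SPXS3 ranked 5 and 6 in the 30 d groups without and with Pi and 15 and 10 in those of 90 d. Ebr02G027230 ranked between 7 and 9 in 3 groups and 16 in 90d +P, where Ebr04G018640 ranked 7 with 23.0 FPKM in replicate B, against 18 in both 30 d groups and 14 in 90d -P. The leading PHO1 homolog 3 gene, a phosphate exporter relative, was steady by comparison, from 89.0 CPM in 90d +P replicate C to 252 CPM in 30d -P replicate C. Apart from the 4 genes, 32 genes carry an SPX name or the words SPX domain, of which 16 were tested and edgeR called 0 in any comparison. Their median log2 fold change was -0.28 at 30 d and 0.45 at 90 d for -P over +P, where the median over all genes was -0.01 and -0.00. At 30 d 5 of the 16 were above 0 and 11 below, and at 90 d 13 were above and 3 below. At an unadjusted p of at most 0.05 with the fold change minimum, 0 of the 16 were higher and 1 lower at 30 d, against 4.85% of all genes, and 1 was higher and 0 lower at 90 d, against 4.38%. The gene at 90 d was PHO1 homolog 3 Ebr03G045780 (log2 fold change 2.14, SE 0.49, adjusted p = 0.549 by edgeR), with 11.3 CPM in 90d -P and 2.56 CPM in 90d +P on average. Several PHO1 homolog 3 genes lie close together on chromosome 3, and reads common to such copies make their single values uncertain.

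**Figure D5:**
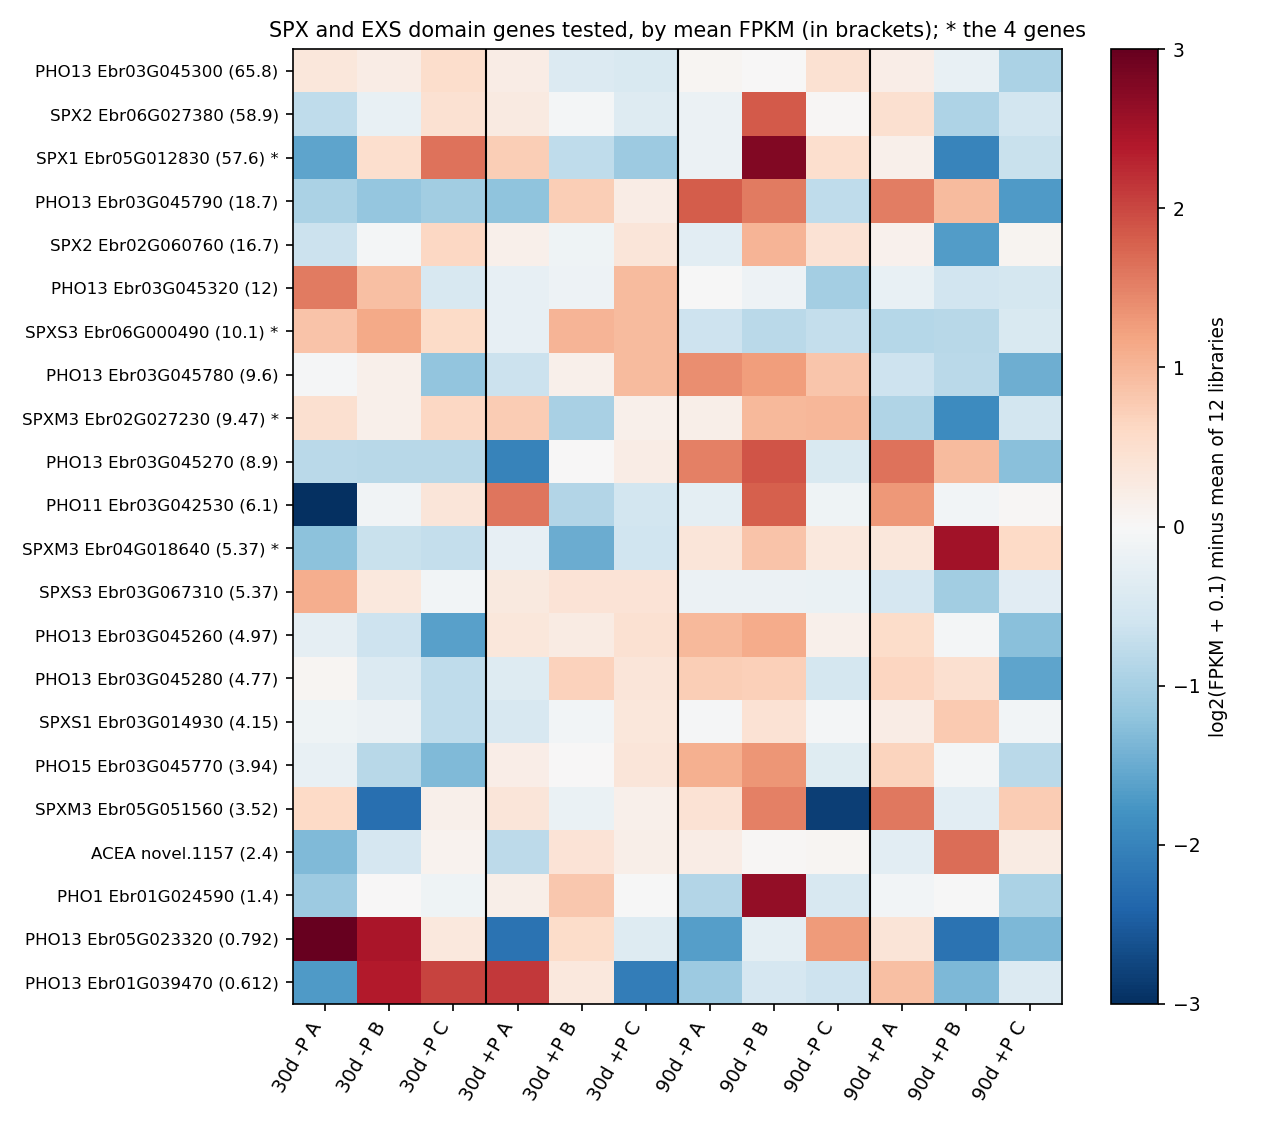
Expression of the 22 SPX and EXS domain genes tested (rows, by mean FPKM in brackets, the 4 genes marked with a star) in the 12 libraries (columns), as log2(FPKM + 0.1) minus the mean of the gene, with colours capped at 3. SPX1 is highest in 90d -P replicate B, SPXM3 Ebr04G018640 in 90d +P replicate B, and SPXS3 is below its mean in every 90 d library.

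The surrounding phosphate pathway was read from lists of genes made by annotation words. Upstream, inositol pyrophosphate kinases make the ligand of the SPX domain. Of the 3 listed, 2 were tested, and 1, VIP2 (VIP2L, Ebr03G061370), rose with time under both supplies, where edgeR called 5.58% of all genes in -P and 3.02% in +P. Its level was 13.5 ± 1.15 CPM in 30d -P and 13.9 ± 2.74 in 30d +P, against 33 ± 3.25 in 90d -P and 33.6 ± 6.96 in 90d +P (SD, n = 3 each). Its log2 fold changes with time were 1.29 in -P (adjusted p = 0.0163 by edgeR) and 1.27 in +P (adjusted p = 0.0242), and it differed by -0.04 and -0.03 between -P and +P at 30 d and 90 d. The call in -P was lost without 90d -P replicate B (1.36, adjusted p = 0.0584 by edgeR) and that in +P without 90d +P replicate B (1.1, adjusted p = 0.0886). Without both replicate B libraries, the call in -P was kept (1.4, adjusted p = 0.0478 by edgeR). That in +P was lost there too (1.14, adjusted p = 0.0947 by edgeR).

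PHR-like factors were listed by name as relatives of the PHR transcription factors that SPX proteins hold back in Arabidopsis and rice. Whether those listed bind SPX1 was not tested. Of 12 listed, 11 were tested, 1 was called higher in 90d -P than in 30d -P, against 5.58% of all genes called there, and 0 were called elsewhere. The called gene was PHL7 (Ebr06G058960), with 24.2 ± 4.93 CPM in 30d -P and 67.7 ± 22.9 in 90d -P (log2 fold change 1.49, SE 0.33, adjusted p = 0.0329 by edgeR). In +P its difference was 1.18 (adjusted p = 0.0705), and without 90d -P replicate B the call in -P was lost (1.24, adjusted p = 0.109 by edgeR). The most abundant, PHL3 (Ebr02G035230), stayed between 55.9 and 75.3 CPM in all libraries.

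Among the transporters and the enzyme that removes them, 0 genes were called in any comparison. Tested were 2 of 18 PHT1 uptake transporters, 12 of 23 PHO1 genes and 8 of 15 PHO2 and BAH1 ubiquitin enzymes. Over all genes, edgeR called 0.0% for -P against +P at either time, 5.58% with time in -P and 3.02% in +P. At unadjusted p of at most 0.05 with the fold change minimum, 2 PHT1 and 1 PHO1 genes were higher in -P at 90 d. There 2 ubiquitin enzymes were lower, against 4.38% of all genes. With time in -P, 5 PHO1 genes were higher and 1 lower, against 16.5%. With time in +P, 0 PHO1 genes were higher and 1 lower, against 13.2%. The ubiquitin enzymes had 0 higher and 1 lower with time in -P, and 3 higher and 1 lower in +P. PHT1-4 (PHT14, Ebr02G025260) had 359 (A), 1410 (B) and 879 CPM (C) in 90d -P and 303 (A), 98.2 (B) and 420 CPM (C) in 90d +P. These groups overlapped by 1 library (log2 fold change 1.69, SE 0.54, unadjusted p = 0.0106, adjusted p = 0.825 by edgeR). The difference was 1.19 without 90d -P replicate B and 0.77 without both replicate B libraries. The 2 PHT1 genes had a median log2 fold change of 3.75 at 90 d. The PHT1 gene not named here thus had a larger difference than PHT1-4, and its single values are not given. UBC24 (Ebr03G015390), which as PHO2 in Arabidopsis tags phosphate transporters for breakdown, had 52.9 (A), 264 (B) and 70.9 CPM (C) in 90d +P and 27.2 (A), 56.2 (B) and 42.3 CPM (C) in 90d -P. The log2 fold change of -P over +P was -1.62 (adjusted p = 0.832 by edgeR). It was -0.57 without 90d +P replicate B, -1.9 without 90d -P replicate B and -0.84 without both. The library with the least SPX1, 90d +P replicate B, thus held the most UBC24 and the most SPXM3 Ebr04G018640, and the least PHT1-4.

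Downstream, 31 of 55 purple acid phosphatase genes and 15 of 60 lipid remodelling genes were tested, and 1 gene of these lists was called, lower in 90d +P than in 30d +P, where edgeR called 3.02% of all genes, 2.18% lower. It was SQD2 (Ebr03G035750), which makes the sulfolipid that replaces phospholipids, with 43.6 CPM in 90d +P against 101 CPM in 30d +P on average (log2 fold change -1.21, SE 0.29, adjusted p = 0.0490 by edgeR), and the call was lost without 90d +P replicate B (-1.1, adjusted p = 0.150). At 90 d its -P and +P groups did not overlap, as for 8.92% of all genes, with 79.7 against 43.6 CPM on average, but it was not called (log2 fold change 0.87, adjusted p = 0.832, and 0.56 without 90d -P replicate B). The purple acid phosphatase of highest FPKM, PAP3 Ebr06G047170, went its own way, with 24.8 CPM in 90d -P replicate B, its lowest value, where the PAP3 genes most like SPX1 had their highest.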

How the data were processed

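Leaf RNA of 12 libraries (4 groups of 3, grouped by the sample titles) was analysed. Per the labels, NEBNext Ultra RNA libraries were made, and HISAT2 2.0.5, StringTie 1.3.3b and featureCounts 1.5.0-p3 were used. The authors deposited raw counts per gene, without normalization; strand setting and treatment of multiply mapped reads are not given in the sources used here. The authors' FPKM were tested on the values and equal counts per length of gene, over a library size scaled by DESeq2 size factors, 0.887 to 1.17 times the total. Columns of the authors' own annotation were used and 1 line without a gene was dropped.

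Counts were fitted in edgeR 4.0.16 (R 4.3.3) with TMM, filterByExpr, a mean per group, the robust quasi-likelihood test and 8 residual degrees of freedom, with Benjamini-Hochberg adjustment over 24307 genes. A gene was called when its adjusted p did not exceed 0.05 and it changed by 1 log2 unit or more in size. Standard errors were derived from the F statistic, so an interval and its p can differ slightly. CPM use TMM library sizes. Log2 CPM (prior count 0.5) served the exact permutation tests and Pearson's r. Replicates are called biological by the study; separate plants per library are not detailed, so p-values measure the spread between these samples. Scripts were tested on simulated data. Alternatives were RLE normalization, no filter, CPM of at least 1 in 3 libraries, DESeq2 1.42.0, limma 3.58.1 voom with quality weights, the replicate letter as a block, adjusted p alone, unadjusted p, fits to 6 libraries, log2(FPKM + 1) and log2(FPKM + 0.1), and each library left out. The likelihood ratio test and leaving out both 90 d replicate B libraries, also for the other genes named and for r, were chosen after seeing the data.

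The 4 genes and the lists were chosen with earlier results of these data known. Named besides the 4 are the 3 genes with the highest r for each, of each list the called genes and that of highest mean FPKM, and relatives by annotation, with Ebr03G045780 and SPX2 picked after their values were seen. Glycerol-3-phosphate transporters and sugar phosphate translocators were not counted as PHT1, nor APSR1, photolyase and phytolongin genes as PHR-like, nor VIP proteins that are not kinases and Paladin as inositol pyrophosphate kinases, nor glycerol-3-phosphate acyltransferases and IPK1 as PHO2 or BAH1 genes. The small RNA data were not analysed here.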

Additional observations from a re-analysis of the deposited data

How the results depend on the processing

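Each group had 3 libraries, and the biological coefficient of variation was 0.600. The part of depth in the calls was not tested. The counts of the 4 genes called changed as follows, and the causes were not tested. At 90 d for -P against +P, edgeR called 0, DESeq2 called 1 on 12 and on 6 libraries, and 2 passed at unadjusted p. For 90d -P against 30d -P, edgeR called 1, against 2 with DESeq2 on 6 libraries, 2 at unadjusted p, and 0 with the replicate letter as a block or without both 90 d replicate B libraries. It was between 0 and 2 with 1 library left out. For 90d +P against 30d +P, edgeR called 1. The count was 2 with DESeq2 on 12 or 6 libraries, the likelihood ratio test or voom, 3 at unadjusted p, and 0 with the replicate block, on 6 libraries alone, without a filter, or without both replicate B libraries, and between 0 and 1 with 1 library left out. The mean phosphate effect and the interaction had 0 calls and 1 at unadjusted p each. All called genes over the whole table also moved. For 90d -P against 30d -P there were 1356, against 3232 and 3218 with DESeq2 on 12 and 6 libraries, 2789 with the likelihood ratio test, 2385 with voom, 314 with edgeR on 6 libraries, 121 with the block and 52 without both replicate B libraries, and for 90d +P against 30d +P they were 734, against 2377, 2199, 2021, 2044, 2, 10 and 22.

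Directions turned only for differences that were not called. They were SPXM3 Ebr04G018640 at 30 d for -P against +P (0.09 with voom, -0.45 to 0.12 with 1 library left out), SPX1 with time in -P (-0.47 without both replicate B libraries, -0.50 to 1.81 with 1 left out) and in +P (0.32 with voom, -1.08 to 0.32), the interaction of SPX1 (-0.43 without both, -0.05 to 2.29) and of Ebr04G018640 (0.03 without both, -1.14 to 0.21), and SPXS3 at 90 d for -P against +P. The last was -0.00 with DESeq2 on 12 libraries, with edgeR on 6 and without a filter, -0.01 with RLE, -0.03 without both replicate B libraries, and -0.07 to 0.16 with 1 left out. Leaving out 1 library also turned the 30 d phosphate difference of SPX1 (-0.08 to 1.63), Ebr02G027230 (-0.07 to 0.73) and SPXS3 (-0.11 to 0.41), the 90 d one of Ebr04G018640 (-1.33 to 0.04), and for SPXS3 the mean phosphate effect (-0.05 to 0.20) and the interaction (-0.41 to 0.12). In the permutation tests of phosphate, the ranges were 0.77 to 1.66 for SPX1, with p = 0.04 without 30d -P replicate A, 0.90 to 1.35 for Ebr02G027230 and -0.05 to 0.25 for SPXS3. For SPX1 with time the range was -0.27 to 0.55. FPKM in place of CPM moved no permutation result across 0.05.

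Whether the letters A, B and C pair the libraries is not settled, as the residuals of 3 libraries in a group depend on each other. Of 18 same-letter pairs, 4 had a correlation of residuals over 0.1, and r ran from -0.186 to 0.23. All 4 joined 30 d to 90 d under the same supply. They were 0.189 (A) and 0.23 (C) in -P and 0.147 (A) and 0.106 (B) in +P. The others of this kind were -0.00573 (B, -P) and -0.0106 (C, +P). Pairs of different letters reached 0.234, for 30d -P replicate C with 30d +P replicate A. With the replicate block, SPXS3 kept log2 fold changes of -1.58 in -P (adjusted p = 0.0588) and -1.37 in +P (adjusted p = 0.0839).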
